A study of Caenorhabditis elegans with 8 samples.

Results

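The genes described here are 10 transcription factor and zygotic onset genes of the early Caenorhabditis elegans embryo, namely pes-10, end-1, end-3, tbx-37, tbx-38, elt-1, hlh-1, pha-4, elt-2 and elt-7. They were taken by name from a count table of 46093 genes, and each of the 10 names matched 1 row. Adult hermaphrodites carry fertilized eggs, so these transcripts can serve as a gauge of the embryos inside whole adults. The members were named for their known roles, with earlier results of these data known. No sequence of these genes was used here.

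Poly(A) RNA of whole worms was sequenced from 4 cultures of a strain labelled atf-6 and 4 cultures of N2, the wild-type laboratory strain. Worms of both strains were fed OP50-1 bacteria at 20 °C and collected as day 1 adults, 72 h after synchronized first-stage larvae were placed on food, with about 1000 worms per culture. The labels call the 4 cultures of a strain independent. They name no allele of atf-6, which encodes a membrane-bound transcription factor of the unfolded protein response, and they do not say how many eggs the worms held.

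Transcription of the embryo's own genome starts in a few somatic cells soon after the first divisions, and pes-10 is among the first genes read. Cell fate is then passed down by lineage: the maternal factor SKN-1 turns on the GATA factor genes med-1 and med-2, which turn on end-1 and end-3 in the founder cell of the gut, and these start elt-7 and elt-2. ELT-2 and ELT-7 stay on in the intestine for life. tbx-37 and tbx-38 act in descendants of the anterior founder cell, elt-1 specifies epidermis, hlh-1 (the worm MyoD) acts in body wall muscle, and pha-4 (FoxA) in the pharynx.

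Libraries held 14273326 to 19396448 estimated counts in atf-6 and 12664222 to 21698298 in wild type. edgeR tested 12375 genes for a strain difference, and 101 of them (0.816%) had an adjusted p under 0.05. Of these, 88 (0.711% of those tested) were higher and 13 (0.105%) were lower in atf-6. The total was 16 to 41 when any library other than wild-type replicate 3 was left out. The atf-6 gene itself had 16.04, 15.1, 14.7 and 14.1 CPM (reads of a gene scaled to a common library size) in atf-6 replicates 1 to 4, against 10.8, 12.8, 13.2 and 12.5 CPM in wild type. Its log2 fold change of 0.28 did not pass (edgeR adjusted p = 0.346), but passed with 1 surrogate variable in the model (adjusted p = 0.0471). A level of the whole transcript does not check a strain whose allele is unnamed.

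All 10 genes had counts in every library, at low levels and down to 2 counts (end-1 in atf-6 replicate 1). Abundances scaled for transcript length (TPM) allow the genes to be set beside each other. elt-7, elt-2 and elt-1 were the most abundant, with means over the 8 libraries of 4.44, 3.71 and 3.598 TPM. pha-4 and pes-10 followed at 2.03 and 1.78 TPM, then hlh-1 at 1.18 TPM. The 4 lowest were end-1 at 0.656, end-3 at 0.523, tbx-38 at 0.447 and tbx-37 at 0.334 TPM. In this order elt-1 stood above pha-4, pes-10 above hlh-1 and hlh-1 above end-1 in 8 of 8 libraries. Other neighbours changed places: elt-7 was above elt-2 in 6, elt-2 above elt-1 in 5, pha-4 above pes-10 in 5, end-1 above end-3 in 5, end-3 above tbx-38 in 7, and tbx-38 above tbx-37 in 6 of the 8.

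Some genes of the maternal supply were far more abundant. mex-5, a maternal RNA-binding regulator of early polarity, averaged 251 TPM, and skn-1 averaged 50.5 TPM. Summed, 12 eggshell genes reached 3962 TPM and 10 intestine markers 1052 TPM, against 18.7 TPM for all 10 lineage and onset genes together. The upstream activators med-1 and med-2 were at the limit of detection. med-1 had 1 count in atf-6 replicate 3 and 2 counts in wild-type replicate 4, med-2 had 1 count in atf-6 replicate 3, and every other library had 0. A floor of 3 counts, taken as the limit that a count of 0 allows, stood at 0.138 to 0.228 CPM depending on the library, and covers counting error only.

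Whether the reads of these genes came from embryos in the uterus could not be checked directly. Markers of sperm, oocytes, eggshell, muscle, pharynx, epidermis and gut were all present, as the whole-organism label states. Their presence does not place the lineage and onset reads in embryos. elt-2, elt-7, pha-4, hlh-1 and elt-1 are known to be read in tissues of the adult as well. In bulk RNA their reads cannot be assigned to embryo or mother, and fewer cells of a type cannot be told apart from less RNA per cell. pes-10, end-1, end-3, tbx-37 and tbx-38 are known mainly from early embryos.

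**Figure D1:**
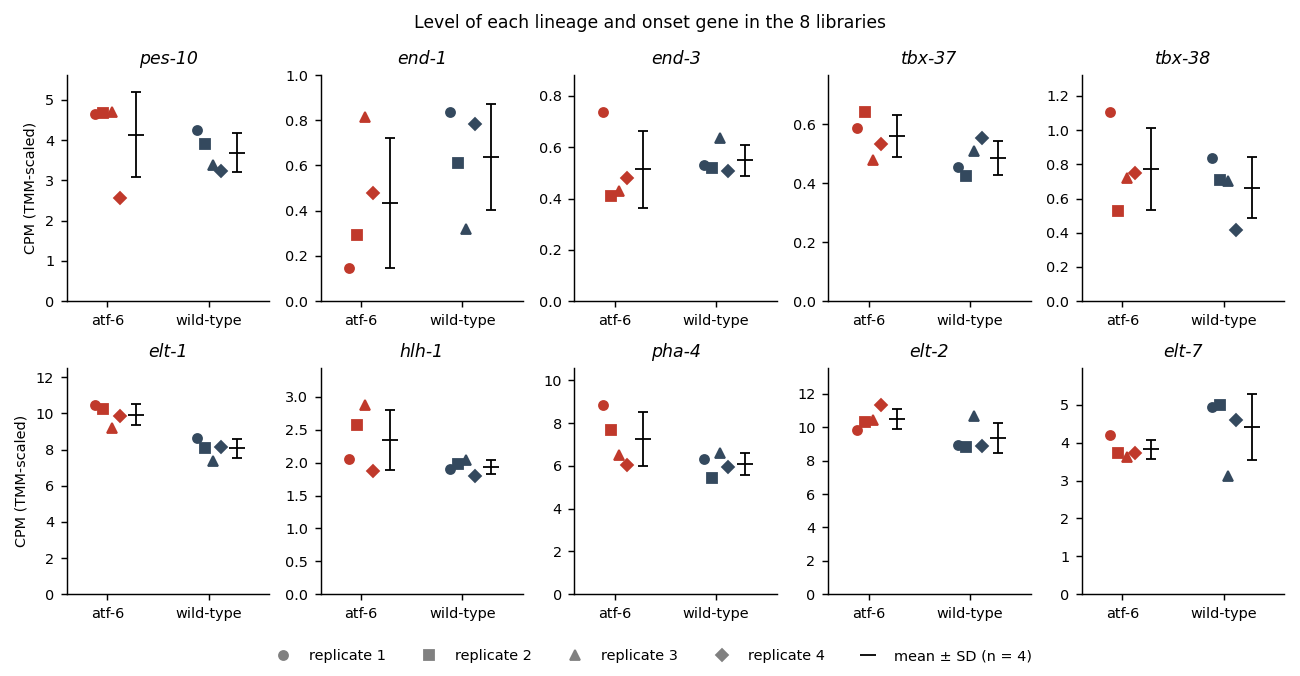
Level of each of the 10 genes in CPM (vertical axes, each from 0) in 4 atf-6 libraries (left, red) and 4 wild-type libraries (right, dark), with the mean and SD of each strain. The strains overlap for every gene except elt-1, whose atf-6 libraries lie between 9.19 and 10.5 CPM and whose wild-type libraries lie between 7.39 and 8.66 CPM.

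None of the 10 genes was called between the strains. The filter on low counts kept 8 of them, and 0 of these 8 passed edgeR's test, where 0.816% of all tested genes did. Adjusted p-values of the 8 ran from 0.315 to 0.933. At an unadjusted p under 0.05 there was 1 (elt-1), where 7.0% of all tested genes reached that. end-3 and tbx-37 fell below the filter and were fitted without it, where 0 of 10 passed (lowest adjusted p = 0.670 in edgeR). DESeq2 also called 0 of 10 (lowest adjusted p = 0.612). Misses of this kind bound the differences and do not show that the strains are alike, so intervals are given with each gene.

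pes-10 (WBGene00003983, chromosome II, 12846191 to 12847836, minus strand, build WBcel235; like the other 9 it is protein-coding), the marker of zygotic onset, was at 4.64, 4.66, 4.69 and 2.56 CPM in the atf-6 libraries. Wild-type libraries were at 4.25, 3.91, 3.38 and 3.23 CPM. atf-6 replicates 1 to 3 lay above all wild-type libraries and replicate 4 lay below them all. The means were 4.14 ± 1.05 CPM in atf-6 and 3.69 ± 0.475 CPM in wild type (SD, n = 4 each). edgeR's log2 fold change was 0.17 (SE 0.201, adjusted p = 0.933), with a 95% interval of 0.825- to 1.53-fold. The low library rested on 48 counts, a 95% counting interval of 1.89 to 3.40 CPM. Without it the log2 fold change was 0.34 (unadjusted p = 0.0420, edgeR adjusted p = 0.807). Without any 1 of the other 7 libraries it was 0.09 (without atf-6 replicate 3) to 0.23 (without wild-type replicate 1).

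The gut-founder genes lie close together on chromosome V. end-1 (WBGene00001310) spans 13985128 to 13987074 and end-3 (WBGene00001311) spans 14014695 to 14015980, both on the plus strand, with 27620 bases and 4 protein-coding genes (ric-7, droe-4, ddx-17 and aip-1) between them. These neighbours were read at other levels: ddx-17 had 737 ± 53.7 CPM in atf-6 and 763 ± 65.1 CPM in wild type (SD, n = 4 each). None of the 4 passed edgeR's test (adjusted p of 0.902 to 0.988).

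end-1 was counted 2, 5, 17 and 9 times in atf-6 replicates 1 to 4 and 11, 13, 5 and 17 times in wild-type replicates 1 to 4. On the CPM scale this was 0.147, 0.291, 0.813 and 0.480 in atf-6, against 0.835, 0.612, 0.319 and 0.783 in wild type. Levels spread 5.67-fold over the 8 libraries, the widest of the 10 genes, and the strains overlapped. The 95% counting intervals of atf-6 replicate 1 (0.0178 to 0.532 CPM) and atf-6 replicate 3 (0.474 to 1.30 CPM) overlapped between 0.474 and 0.532 CPM. The log2 fold change was -0.47 (SE 0.452, edgeR adjusted p = 0.917), an interval of 0.361- to 1.45-fold. Without atf-6 replicate 3 it was -0.98, and without atf-6 replicate 1 it was -0.24, neither passing the test.

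The 3 libraries lowest in end-1 were atf-6 replicates 1 and 2 and wild-type replicate 3. They also lay at 1 end of the leading variation that crosses the strains, a surrogate variable estimated from all tested genes (0.407, 0.176 and 0.586, against -0.518 to 0.00715 in the other 5 libraries). With this variable in the model, the log2 fold change of end-1 was -0.83 (SE 0.338, unadjusted p = 0.0265), and it still did not pass (edgeR adjusted p = 0.259). The 3 libraries were picked by their end-1 values. The change was not particular to end-1: pha-4 in the same model had 0.30 (unadjusted p = 0.0177, edgeR adjusted p = 0.217).

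end-3, the partner gene, did not show this spread. It had 10, 7, 9 and 9 counts in atf-6 and 7, 11, 10 and 11 in wild type, or 0.736, 0.408, 0.431 and 0.480 CPM against 0.531, 0.518, 0.637 and 0.507 CPM. Its highest and lowest libraries were both atf-6. Means were 0.514 ± 0.151 CPM in atf-6 and 0.548 ± 0.0600 CPM in wild type (SD, n = 4 each). In the fit without a filter the log2 fold change was -0.13 (SE 0.351, edgeR adjusted p = 0.947), an interval of 0.551- to 1.53-fold.

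As a share of the counts of both end genes, end-1 made up 16.7%, 41.7%, 65.4% and 50% in atf-6 and 61.1%, 54.2%, 33.3% and 60.7% in wild type. Exact 95% binomial intervals were wide, from 2.09% to 48.4% in atf-6 replicate 1 and from 44.3% to 82.8% in atf-6 replicate 3. In the per-library files the estimated reads of end-1, end-3, tbx-37 and tbx-38 were exact whole numbers in all 8 libraries, so the quantifier split no read between these paralogs. end-3 and tbx-38 each overlap a gene on the opposite strand, as do hlh-1, pha-4 and elt-1. The sources used here do not say whether counting used strand, so reads from the overlaps cannot be told apart.

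tbx-37 and tbx-38 encode T-box factors that act redundantly where Notch signalling induces the anterior pharynx. Both are on the minus strand of chromosome III, at 11224808 to 11227125 (WBGene00006556) and 11784082 to 11786061 (WBGene00006557), 556956 bases apart. tbx-37 had 0.589, 0.641, 0.478 and 0.534 CPM in atf-6 and 0.456, 0.424, 0.510 and 0.553 CPM in wild type, from 6 to 12 counts a library. Without the filter its log2 fold change was 0.18 (SE 0.341, edgeR adjusted p = 0.910), an interval of 0.692- to 1.86-fold. tbx-38 had 1.10, 0.525, 0.718 and 0.747 CPM in atf-6, against 0.835, 0.706, 0.701 and 0.415 CPM in wild type. Its log2 fold change was 0.23 (SE 0.309, edgeR adjusted p = 0.933), an interval of 0.728- to 1.88-fold. It was 0.04 without atf-6 replicate 1, 0.03 without wild-type replicate 4 and 0.36 without atf-6 replicate 2. Strains overlapped for both genes.

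The spread of the counts was set beside counting error. The chi-square of the 8 counts against equal levels, per degree of freedom, is near 1 where counting alone gives the variation. The deposited counts are not plain sums of reads, so this is a rough guide. It was 0.174 for tbx-37, 0.348 for end-3 and 0.985 for tbx-38. end-1 stood at 2.07 and pes-10 at 2.94, with the other 5 genes between 1.32 and 2.94.

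**Figure D2:**
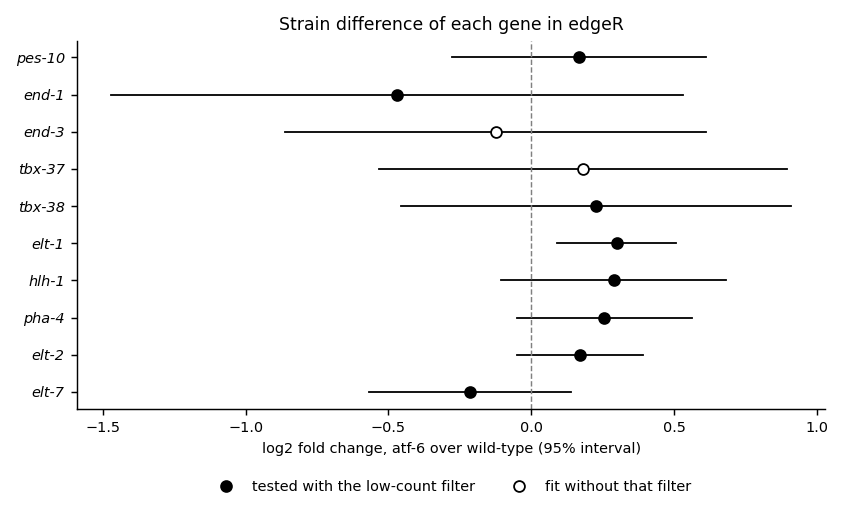
Log2 fold change of each gene, atf-6 over wild type (horizontal axis), from edgeR with its 95% interval; filled points passed the filter on low counts and open points come from the fit without it. The interval of elt-1 (0.09 to 0.51) is the only one that does not include 0, before adjustment over all genes.

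elt-1, hlh-1 and pha-4 commit cells to epidermis, muscle and pharynx. elt-1 (WBGene00001249, chromosome IV, 9614995 to 9620280, plus strand) had 10.5, 10.3, 9.19 and 9.87 CPM in atf-6 replicates 1 to 4, against 8.66, 8.10, 7.39 and 8.15 CPM in wild type. In CPM of the deposited counts all 4 atf-6 libraries were above all 4 wild-type libraries, the only such case among the 8 tested. As TPM the strains overlapped for elt-1, with 3.43 TPM in atf-6 replicate 1 against 3.75 TPM in wild-type replicate 1. Of all tested genes 5.79% had groups that did not overlap. Means were 9.94 ± 0.559 CPM in atf-6 and 8.07 ± 0.521 CPM in wild type (SD, n = 4 each). The strain difference of 0.30 on the log2 scale (SE 0.0943) had an unadjusted p of 0.00941 and missed the threshold (edgeR adjusted p = 0.315), with an unadjusted interval of 1.06- to 1.42-fold. Over 18 alternative settings its adjusted p ran from 0.121 to 0.839, and its unadjusted p was under 0.05 in all 18. With plain sums of transcript reads its log2 fold change was 0.23 (unadjusted p = 0.0481, edgeR adjusted p = 0.814).

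ELT-1 is also known as a germline factor linked to transcription of major sperm protein genes. In these libraries sperm transcripts moved with the strain. Of 31 tested sperm markers 14 rose in atf-6, 0 fell and 17 did not pass; with DESeq2 27 rose. Among them msp-57, a major sperm protein gene, rose to 23.7 ± 4.02 CPM in atf-6, against 10.1 ± 2.82 CPM in wild type (SD, n = 4 each; log2 fold change 1.22, edgeR adjusted p = 0.0242). msp-19, msp-55 and msp-53 rose with log2 fold changes of 1.12, 1.27 and 1.61. All 37 genes of the list had counts, and their sum was 245 to 393 CPM in atf-6 and 104 to 180 CPM in wild type. The number called was 2, 4, 3 and 0 without atf-6 replicates 1 to 4, and 1, 2 and 0 without wild-type replicates 1, 2 and 4. It was 2 with plain sums of transcript reads and 0 with a replicate block. The part of sperm content in the elt-1 values was not tested.

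hlh-1 (WBGene00001948, chromosome II, 4518574 to 4522528, plus strand) had 2.06, 2.56, 2.87 and 1.87 CPM in atf-6 and 1.90, 1.98, 2.04 and 1.80 CPM in wild type. The wild-type libraries were close together and lay in or below the lower part of the atf-6 range. Its log2 fold change was 0.29 (SE 0.178, edgeR adjusted p = 0.858), an interval of 0.929- to 1.61-fold. With 1 library left out it was 0.17 (without atf-6 replicate 3) to 0.39 (without atf-6 replicate 4). Body wall muscle markers, 10 structural genes, summed to 5499 to 7033 CPM in atf-6 and 5023 to 7170 CPM in wild type. In edgeR and in DESeq2 0 of 10 passed. At an unadjusted edgeR p under 0.05 there was 1 (myo-3, named after its value was seen), where 7.0% of all tested genes reached that.

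pha-4 (WBGene00004013, chromosome V, 20753052 to 20760317, plus strand) had 8.83, 7.69, 6.51 and 6.03 CPM in atf-6, against 6.30, 5.41, 6.62 and 5.94 CPM in wild type. atf-6 replicates 1 and 2 were above every wild-type library and the other 2 lay within the wild-type range. Means were 7.27 ± 1.26 CPM in atf-6 and 6.07 ± 0.519 CPM in wild type (SD, n = 4 each). The log2 fold change was 0.26 (SE 0.139, edgeR adjusted p = 0.841), an interval of 0.965- to 1.48-fold. With 1 library left out it was 0.16 (without atf-6 replicate 1) to 0.34 (without atf-6 replicate 4). Pharynx markers, muscle genes of that organ such as myo-2, summed to 253 to 308 CPM in atf-6 and 212 to 300.3 CPM in wild type, and 0 of 5 passed in edgeR (0 at an unadjusted p under 0.05) or in DESeq2. Epidermis markers, cuticle collagens such as col-19 among them, also had 0 of 5 tested past it in both, and 0 at an unadjusted p under 0.05.

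The annotation gives pha-4 3 transcripts on the plus strand with different starts, a from 20753052, b from 20755491 and c from 20756910. Transcript b took 16.9%, 14.7%, 19.7% and 8.21% of the pha-4 reads in atf-6, against 50.2%, 26.2%, 65.2% and 39.2% in wild type. Every atf-6 library was below every wild-type library. The mean share was 14.9% ± 4.91 in atf-6 and 45.2% ± 16.6 in wild type (SD, n = 4 each), with an exact two-sided permutation p of 0.0286, the smallest that 4 against 4 allows. Adjusted over the 14 transcripts of elt-1, elt-7, hlh-1 and pha-4 compared in this way, the exact permutation p was 0.400. With 4 libraries a strain, 1 fully separated transcript among 14 could not pass after adjustment, so this value decides nothing. This comparison was chosen after the transcript values had been seen.

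Transcript c took 45.3%, 59.1%, 55.0% and 51.9% in atf-6 and 12.1%, 53.8%, 13.8% and 27.5% in wild type, and the strains overlapped. Such shares rest on 34.1 reads a library on average for b and 48.3 for c, and on how the quantifier divided reads that fit several transcripts. Shares of elt-1, elt-7 and hlh-1 transcripts overlapped between the strains in all 11 cases. hlh-1 showed how loose such divisions are, since its transcript a took between 5.62% and all of the reads in atf-6 libraries.

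**Figure D3:**
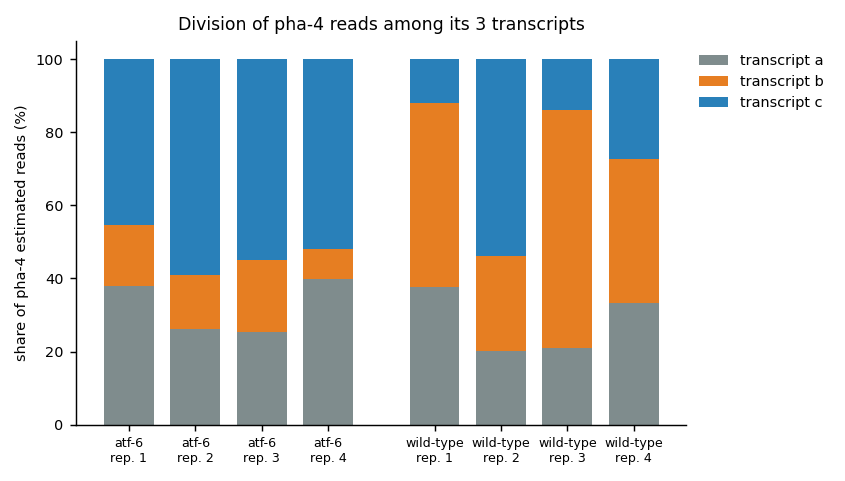
Share of the estimated pha-4 reads (vertical axis, percent) given to transcripts a, b and c in each atf-6 library (left) and wild-type library (right). Transcript b takes 8.21% to 19.7% in atf-6 and 26.2% to 65.2% in wild type.

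elt-2 and elt-7 encode GATA factors that keep intestinal genes on. elt-2 (WBGene00001250, chromosome X, 10481240 to 10483441, plus strand) had 9.86, 10.3, 10.4 and 11.3 CPM in atf-6 and 8.96, 8.80, 10.7 and 8.89 CPM in wild type. Wild-type replicates 1, 2 and 4 lay below all atf-6 libraries and wild-type replicate 3 lay among them. The log2 fold change was 0.17 (SE 0.0996, edgeR adjusted p = 0.856), an interval of 0.966- to 1.31-fold. Without wild-type replicate 3 it was 0.24 (unadjusted p = 0.0317, edgeR adjusted p = 0.575).

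elt-7 (WBGene00015981, chromosome V, 4770670 to 4773086, plus strand) ran the other way, with 4.20, 3.73, 3.64 and 3.74 CPM in atf-6 against 4.94, 4.99, 3.12 and 4.61 CPM in wild type. Wild-type replicate 3 was here the lowest of the 8, though the rule for singling out a library, given below, did not flag it for elt-7. The log2 fold change was -0.21 (SE 0.160, edgeR adjusted p = 0.902), an interval of 0.674- to 1.10-fold. Without wild-type replicate 3 it was -0.34 (unadjusted p = 0.0234, edgeR adjusted p = 0.508). Without any other single library it was -0.14 (without wild-type replicate 2) to -0.26 (without atf-6 replicate 1), with unadjusted edgeR p of 0.175 to 0.440.

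Of the counts of both genes, elt-7 made up 29.8%, 26.6%, 25.9% and 24.8% in atf-6 and 35.5%, 36.2%, 22.6% and 34.1% in wild type. Exact 95% binomial intervals of wild-type replicates 2 and 3, 30.7% to 41.97% and 17.2% to 28.7%, did not meet. These had the highest and the lowest share of all libraries, so the pair was picked as the extremes. The sum of both genes was narrow, at 14.06, 14.05, 14.06 and 15.05 CPM in atf-6 and 13.9, 13.8, 13.8 and 13.5 CPM in wild type. The strains did not overlap in this sum, though their means differed by 1.04-fold and its log2 ratio taken as TPM was -0.0237. Among single tested genes, 5.79% had groups that did not overlap. Intestine markers such as act-5, the actin of the gut brush border, summed to 2567 to 2953 CPM in atf-6 and 2524 to 3253 CPM in wild type, with wild-type replicate 3 the highest, and 0 of 10 passed in edgeR (0 at an unadjusted p under 0.05) or in DESeq2.

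Summed over pes-10, end-1, end-3, tbx-37 and tbx-38, the early embryonic level was 7.21, 6.53, 7.13 and 4.80 CPM in atf-6 and 6.91, 6.17, 5.54 and 5.48 CPM in wild type. atf-6 held both the highest and the lowest library. Means were 6.42 ± 1.12 CPM in atf-6 and 6.03 ± 0.666 CPM in wild type (SD, n = 4 each), 1.07-fold, and pes-10 supplied 53.3% to 71.4% of the sum. Without atf-6 replicate 4 the ratio was 1.15-fold. elt-1, hlh-1 and pha-4 together had 21.3, 20.5, 18.6 and 17.8 CPM in atf-6 and 16.9, 15.5, 16.1 and 15.9 CPM in wild type, 1.22-fold. No p is given for these sums, since the genes were chosen with earlier results of these data known.

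**Figure D4:**
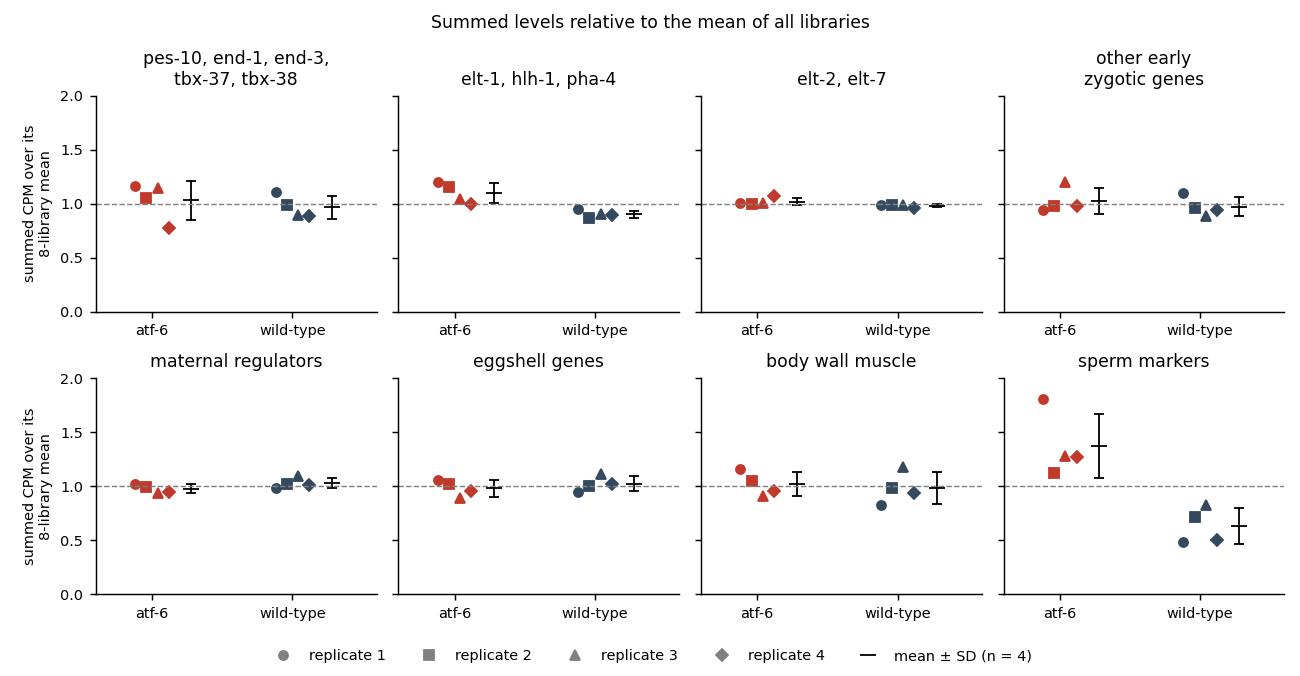
Summed CPM of groups of genes in each library, divided by the mean of the 8 libraries (vertical axes from 0; dashed line at 1), with the mean and SD of 4 atf-6 libraries (left) and 4 wild-type libraries (right). The strains overlap for the early embryonic sum. They do not for sperm markers (245 to 393 CPM in atf-6, 104 to 180 CPM in wild type). Nor do they for elt-1, hlh-1 and pha-4 (17.8 to 21.3 CPM in atf-6, 15.5 to 16.9 CPM in wild type), or for the narrow sum of elt-2 and elt-7. hlh-1 and pha-4 each overlap on their own, and as TPM the strains overlap in their sum with elt-1. Of single tested genes 5.79% do not overlap in CPM, elt-1 among them, and no such share is given for sums.

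Other genes of the early embryo were counted in the same fit. Of 53 other early zygotic genes 28 were tested, and 0 rose or fell past the threshold in edgeR (0 of 34 with DESeq2). At an unadjusted p under 0.05 there were 2 of 28, where 7.0% of all tested genes reached that. The most abundant were lsy-27, a zinc finger gene, tbx-9, a T-box gene of body patterning, and vet-2, a very early transcript. vet-2 had 21.9 ± 3.34 CPM in atf-6 and 20.7 ± 0.912 CPM in wild type (SD, n = 4 each). The log2 fold change was -0.15 for lsy-27 (SE 0.0962), and for tbx-9 it was 0.07 (SE 0.0923). The 2 at an unadjusted p under 0.05, named after their values were seen, were sdz-4 and sdz-37, genes first found by their dependence on SKN-1. sdz-4 had 1.47, 1.22, 2.54 and 0.960 CPM in atf-6 against 0.835, 0.518, 0.446 and 0.737 CPM in wild type (log2 fold change 1.31, SE 0.350, edgeR adjusted p = 0.177).

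Of 30 later tissue specification factors 24 were tested and 0 passed in edgeR (0 of 25 with DESeq2). At an unadjusted p under 0.05 there were 4 of 24, where 7.0% of all tested genes reached that. lin-26, an epidermal factor, had 83.3 ± 5.33 CPM in atf-6 and 88.1 ± 2.66 CPM in wild type (SD, n = 4 each). die-1, a zinc finger factor of morphogenesis, and nhr-23, a nuclear receptor of epidermis and molting, differed by -0.02 (SE 0.0551) and by -0.08 (SE 0.0850) on the log2 scale. The 4 at an unadjusted p under 0.05, named after their values were seen, were ceh-36, nhr-25, ceh-13 and lin-39, with log2 fold changes of 0.65, 0.54, 0.33 and 0.26 (edgeR adjusted p of 0.616 to 0.703).

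Among 35 maternal regulators 0 passed in edgeR (0 at an unadjusted p under 0.05; 0 of 35 with DESeq2). skn-1 had 226 ± 6.84 CPM in atf-6 and 235.2 ± 5.49 CPM in wild type (SD, n = 4 each), with a log2 fold change of -0.06 (SE 0.0515). pal-1, which specifies posterior fates, pie-1, which silences the germ lineage, and pop-1, the TCF factor that splits gut from muscle fate, differed on the log2 scale by -0.10, -0.14 and -0.05 (SE 0.0533, 0.0937 and 0.101). For mex-5, par-5, a polarity gene, and spn-4, an RNA-binding gene, they were -0.12, -0.10 and -0.03. The list summed to 9651 to 10577 CPM in atf-6 and 10153 to 11278 CPM in wild type.

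Eggshell genes (12 tested) and germline and oocyte markers (7 tested) also had 0 past the threshold in edgeR (1, egg-2, named after its value was seen, and 0 at an unadjusted p under 0.05) and 0 with DESeq2. That unadjusted p was reached by 7.0% of all tested genes. cbd-1, an eggshell chitin-binding gene, had 2340 ± 123 CPM in atf-6 and 2414 ± 63.0 CPM in wild type (SD, n = 4 each). For the chondroitin proteoglycan genes cpg-2 and cpg-1 the log2 fold changes were -0.08 and 0.01. cgh-1, gld-1 and rme-2, genes of germline RNA control and of the yolk receptor, had -0.09, -0.08 and -0.08.

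Median log2 fold changes were 0.20 for the 8 tested lineage and onset genes, 0.15 for other early zygotic genes and 0.28 for later factors. They were -0.06 for maternal regulators, -0.08 for eggshell genes and -0.08 for germline and oocyte markers, and 0.00191 for all tested genes. Low genes as a whole lay higher: the median over the 5513 tested genes with a mean log2 CPM under 3.5, where all 8 lineage and onset genes fall, was 0.10, and 67.8% of these were positive, against 50.7% of all tested genes. Of the 8 lineage and onset genes 6 were positive. Lists were not tested as sets.

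**Figure D5:**
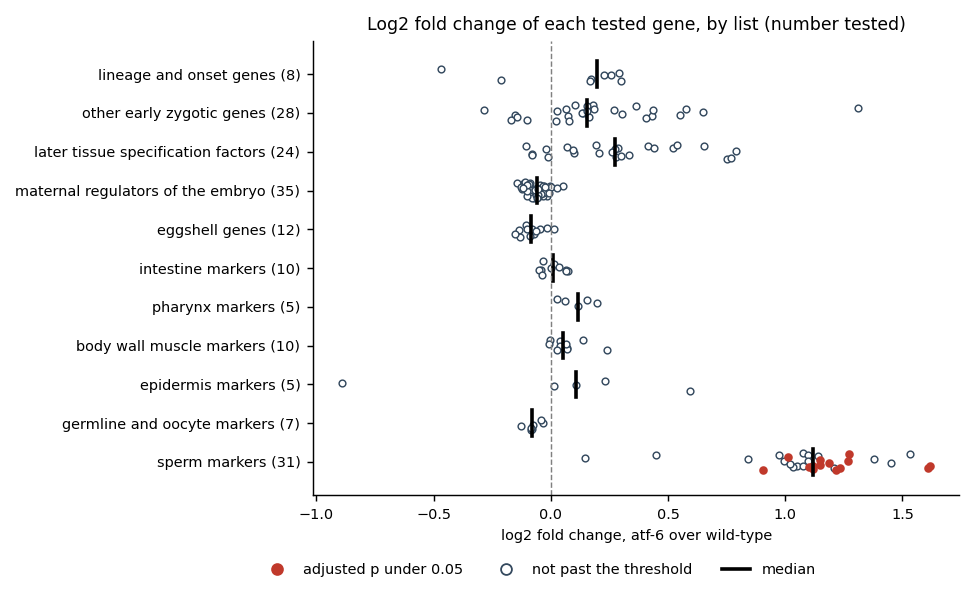
Log2 fold change, atf-6 over wild type (horizontal axis), of every tested gene in the 10 lists and the lineage and onset genes, with the number tested in parentheses; red points passed the threshold and bars are medians. Red points occur in the sperm list alone, whose median is 1.12.

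The genes whose levels followed the early embryonic sum most closely were found by Pearson's correlation of log2 CPM over the 8 libraries, among the 10000 tested genes whose mean log2 CPM was 1 or more. They were skr-10 (r = 0.955), skr-14 (r = 0.940), pes-2.1 (r = 0.888), unc-103 (r = 0.882) and dsl-2 (r = 0.882). skr-10 and skr-14 encode Skp1-related ubiquitin ligase subunits, unc-103 a potassium channel and dsl-2 a Notch ligand of the DSL class. skr-10 had 7.65, 6.18, 7.80 and 5.12 CPM in atf-6 and 7.52, 6.54, 5.92 and 5.67 CPM in wild type, lowest in atf-6 replicate 4 like the sum itself. The most negative were sir-2.2 (r = -0.958), cyp-33E2 (r = -0.904) and F48C1.6 (r = -0.899). None of these 8 passed between the strains (edgeR adjusted p of 0.912 to 0.991). They were picked as extremes of many genes over few libraries, so no p is given.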

How the data were processed

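Whole-worm poly(A) RNA of 4 atf-6 and 4 wild-type cultures was sequenced with a stranded TruSeq kit on a NextSeq500, per the labels' protocols. Build WBcel235 and the tools DESeq2 1.19.51, STAR 2.5.3a and Salmon 0.9.1 are given, per the submitters' processing notes, without role or order. The authors deposited estimated counts per gene as whole numbers, used for all tests. These are not plain sums of transcript reads: pes-10 in wild-type replicate 3 had 53 counts against 50 reads. Counting intervals, shares of paired genes and chi-squares use the deposited counts, so they are approximate. Each library also has a file of TPM and estimated counts per transcript, per the file headers, and an effective length deposited by the authors as another value, not analysed here. A deposited table of scaled counts was not used. Table columns were tied to samples through the library number in each sample's own file.

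The strain term was tested in R 4.3.3 by edgeR 4.0.16 (TMM scaling, filterByExpr, robust quasi-likelihood fit, two-sided, Benjamini-Hochberg over 12375 genes, threshold 0.05). CPM use TMM-scaled library sizes, and errors are SDs over 4 libraries. SEs are the absolute log2 fold change over the square root of F, and 95% intervals use the fit's degrees of freedom. Positions are from an Ensembl annotation of the same build. No 2 libraries agreed within sampling noise (chi-square per degree of freedom of at least 3.77). The labels give no batch. The p-values measure the spread between the cultures sampled. The model was tested on simulated data.

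Named genes were the 10 members and, in each other list, up to 4 genes past the threshold or else the 3 with the highest mean CPM, plus med-1, med-2, skn-1, pie-1, pal-1, pop-1, atf-6 and the 5 most like and 3 most unlike genes. Genes at an unadjusted p under 0.05 in a list with no call were also named, after their values were seen. Members and lists were chosen with earlier results of these data known. Alternatives were RLE and upper-quartile scaling, 2 other count filters, DESeq2 1.42.0, limma-voom (limma 3.58.1), a replicate block, 1 surrogate variable (sva 3.50.0), plain sums of transcript reads, leaving out each library, and leaving out both replicates numbered 3.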

Additional observations from a re-analysis of the deposited data

Results flagged for a closer look

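In groups of 4 libraries, a library was singled out where its gap to the nearest of the others was over 0.829 of the group's range. This was checked in 26 groups, the 10 genes and 3 sums in each strain, and chance alone singles out about 1 in 20. 3 cases were found. pes-10 in atf-6 replicate 4 was at 2.56 CPM, against 4.64 to 4.69 CPM in the other 3 atf-6 libraries. elt-2 in wild-type replicate 3 was at 10.7 CPM, against 8.80 to 8.96 CPM in the other wild-type libraries. The sum of elt-2 and elt-7 in atf-6 replicate 4 was at 15.05 CPM, against 14.05 to 14.06 CPM in the other atf-6 libraries.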

How the results depend on the processing

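For the 8 tested lineage and onset genes, all 144 values under 18 alternatives kept their direction and none passed the threshold. The number of these genes past it was 0 in every setting. The lowest adjusted p was 0.121, for elt-1 with 1 surrogate variable. The number of genes called over the whole table was 194 with DESeq2, 330 with 1 surrogate variable and 39 with plain read sums, and 16 to 107 with 1 library left out. With the replicate block it was 4, and sperm markers had 0. The labels do not say whether same-numbered cultures were handled together. Deviations of same-numbered libraries correlated between -0.41 and 0.04, which does not decide this. The main fit called 0 of the 8 tested lineage and onset genes, so the block could only add calls to them, and it added none. The sperm list had 27 calls with DESeq2, 23 with 1 surrogate variable, 2 with plain read sums and 0 to 19 with 1 library left out. With 1 surrogate variable 1 pharynx marker and 2 body wall muscle markers were called. As TPM, the log2 ratio of the elt-2 and elt-7 sum was -0.0237 rather than 0.0568. The early embryonic sum had log2 ratios of 0.03 to 0.21 with 1 library left out and -0.0011 without both replicates numbered 3. The causes were not tested. Depth limits end-1, end-3, tbx-37 and tbx-38, with 2 to 17 counts a library and 95% intervals of the fold reaching 0.361 (end-1) and 1.88 (tbx-38), and counting intervals cover counting error only.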
